A study of Artemia parthenogenetic lineage with 6 samples.

Results

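Abundant transcripts that stood at a similar relative level in diapause and 5 h after its end were examined in the cysts of the brine shrimp Artemia parthenogenetica. Cysts were sampled at the diapause stage (ArD_0h, n = 3 libraries, labelled as wild type without treatment) and 5 h after embryonic diapause termination (ArR_5h, n = 3 libraries, also labelled as wild type). According to the labels, the ArR_5h cysts were rehydrated in ice-cold artificial seawater of 30‰ and then incubated at 28 °C in constant light. The cysts were collected at Ebinur Lake, and the study took both groups from one batch. Its reactivated cysts were dried and refrigerated to break diapause, and it is unclear from the sources used here if diapause cysts were treated likewise. The handling of the cysts and the time since diapause cannot be told apart in this design.

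The transcripts, called members here, were gene models chosen by their mean CPM (the reads of a model per 1000000 reads counted in the library) in both groups. A model had to reach a mean of 9 on the log2 CPM scale in ArD_0h, and the ratio of its ArR_5h mean to its ArD_0h mean had to lie between 0.8 and the inverse of that value, which is a difference of at most 0.32 on the log2 scale. Of the 16591 models in the table, 174 (1.05%) met this rule. A further 152 models reached the same level at 0 h but had a ratio under the lower limit (99 models) or over the upper limit (53 models), and are called the other abundant models. Since the group means chose the members, their ratios are a description and were not tested. CPM is relative to all counted reads, so that a steady CPM does not show a steady number of molecules per cyst, and fewer cells of a type and less RNA per cell cannot be told apart.

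In encysted brine shrimp embryos, development and metabolism are arrested, and messenger RNA made before the arrest is kept in the cyst. When development resumes, protein synthesis restarts and can draw on this stored RNA before newly made transcripts accumulate. The counts cannot show which copies of a transcript were stored and which were newly made, so that "stored" is used here only for presence at 0 h. The table pairs no identifier with a gene name. Roles are therefore given only for members that the gene ontology (GO) annotations of the study cover.

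The libraries held 9992823 to 13505892 counted reads, and each member had between 3995 and 427443 reads in a library. The spread between replicates over all tested models was larger in ArR_5h, where the biological coefficient of variation was 15.5%, against 4.38% in ArD_0h. On library totals, replicate 3 of ArR_5h stood apart, being the lowest of its group in 7062 and the highest in 2713 of the 11959 models tested. This depended on the scaling of library size. Replicate 3 was above replicate 2 in 3850 of these models on library totals, but in 5484 with TMM and 5541 with RLE factors. The main values that rest on replicate 3 of ArR_5h are given below with and without it.

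The members took a similar part of all reads in every library. The rule itself keeps their mean share at 5 h within the ratio limits of that at 0 h, so that the shares are a description. Their share was 25.5% in replicate 1, 25.8% in replicate 2 and 26.1% in replicate 3 of ArD_0h. The ArR_5h libraries gave 24.5%, 23.6% and 26.9% in the same order. The mean was 25.8% ± 0.311 (SD, n = 3) at 0 h and 25.0% ± 1.70 (SD, n = 3) at 5 h. All 326 abundant models, members included, together held 44.4% to 49.5%, depending on the library. Replicate 3 of ArR_5h had the largest share of reads in members and replicate 2 the smallest.

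Of the 174 members, 66 had a ratio over 1 and 108 a ratio under 1, with a median of 0.961, beside a median of 1.01 over all models tested. None was differentially expressed at the limits of the study (edgeR, adjusted p of at most 0.05 and more than a 2-fold change), where the ratio limits leave no room for such a call, against 25.0% of all models tested. At the same adjusted p and any size of change, 6 members were higher and 37 lower at 5 h. Of all models tested, 31.0% were higher and 29.5% lower by this rule, 60.5% in all. The libraries of the groups did not overlap in 27 members that were higher and 53 that were lower at 5 h. Of all models tested, 34.6% were higher and 32.0% lower without overlap, 66.7% in all. These counts come from the values that chose the members, and nothing is read from them. The fit used TMM factors, whereas the rule used library totals, on which 16 members were higher and 46 lower at an adjusted p of at most 0.05 (edgeR). Of the 11959 models tested, 3773 were higher and 3279 lower on library totals. Without ArR_5h replicate 3, 12 members were higher and 101 lower, beside 4078 and 3921 of the 12193 models tested. Without ArR_5h replicate 2, 23 members were higher and 30 lower, beside 3766 and 3600 of 12267 (edgeR, adjusted p of at most 0.05). Nothing is read from these counts either. The median log2 fold change of the members was −0.09 with all libraries, −0.17 without replicate 3 and −0.0097 without replicate 2. The median standard error of a member's log2 fold change was 0.09.

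**Figure D1:**
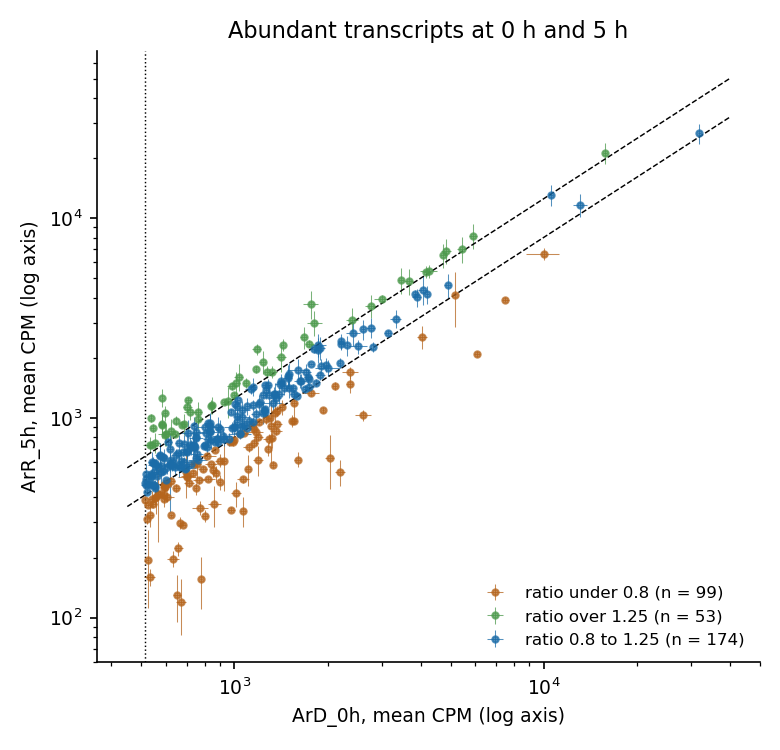
Mean CPM in ArD_0h (x axis) and ArR_5h (y axis) of the 326 abundant gene models, both on log axes, with bars of 1 SD over 3 libraries. The dotted line marks the level limit and the dashed lines the ratio limits, between which the 174 members lie.

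The most abundant member was evm.TU.ctg664.10, which alone took 3.16% to 3.22% of the reads at 0 h and 2.40% to 3.01% at 5 h. It stood at 31875, 32229 and 31649 CPM in the ArD_0h libraries and at 25693, 23994 and 30129 CPM in the ArR_5h libraries, so that every 5 h library was lower and replicate 3 came nearest to diapause. Its ratio was 0.834, close to the lower limit, with a log2 fold change of −0.28 ± 0.13 (SE). No GO annotation was used for this model, and its role is not given here.

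The members that followed had far fewer reads. The model evm.TU.ctg675.6 had 12851, 12586 and 13866 CPM at 0 h and 11154, 10462 and 13345 CPM at 5 h. Only its ArR_5h replicate 3 reached the range of the diapause libraries, and its ratio was 0.890. The third member, evm.TU.ctg396.7, is annotated with GTP binding, a property of many translation factors and small switch proteins. It had 10515, 10371 and 10731 CPM at 0 h against 12633, 11702 and 14774 CPM at 5 h, with all 5 h libraries higher and a ratio of 1.24 near the upper limit. These 3 members stood well above all others in diapause.

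Below them, evm.TU.ctg56.13 stood at 4797, 4834 and 5046 CPM in ArD_0h and at 4299, 4200.0 and 5358 CPM in ArR_5h. Replicate 3 of ArR_5h was above every diapause library, whereas replicates 1 and 2 were below all of them, and the ratio of the means was 0.944. The same arrangement held for evm.TU.ctg1326.2, with 4208, 4144 and 4237 CPM at 0 h and 3989.8, 3836 and 4637 CPM at 5 h, and a ratio of 0.990. A mean ratio close to 1 was thus put together from ArR_5h libraries on both sides of diapause. The model evm.TU.ctg96.26 followed this order with 3190.3, 3314 and 3461 CPM at 0 h and 2975, 2939 and 3499.6 CPM at 5 h, at a ratio of 0.945. For evm.TU.ctg323.10 the values were 3785, 4036 and 3830.3 CPM and 3894, 3658 and 4482 CPM, again with replicate 3 highest and replicate 2 lowest at 5 h.

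The model evm.TU.ctg1076.5 ran the other way. It is annotated with DNA-directed RNA polymerase activity and DNA binding, the functions of the enzymes that transcribe genes. It had 4229, 3999 and 3975 CPM at 0 h and 4601, 4975 and 3591 CPM at 5 h, so that replicate 3 was the lowest ArR_5h library and the only one below diapause. The remaining members of the 10 with most reads differed less between the ArR_5h libraries. The model evm.TU.ctg752.4 was at 3893, 3765 and 3841 CPM and 4248, 3976 and 4312 CPM, all 5 h libraries being higher, at a ratio of 1.09. The model evm.TU.ctg1015.4 was at 3039, 3203 and 3200.1 CPM and 2611, 2640.5 and 2776 CPM, all 5 h libraries being lower, at a ratio of 0.850. Together the 10 held 8.29% ± 0.0813 of the reads at 0 h and 7.85% ± 0.754 at 5 h (SD, n = 3).

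**Figure D2:**
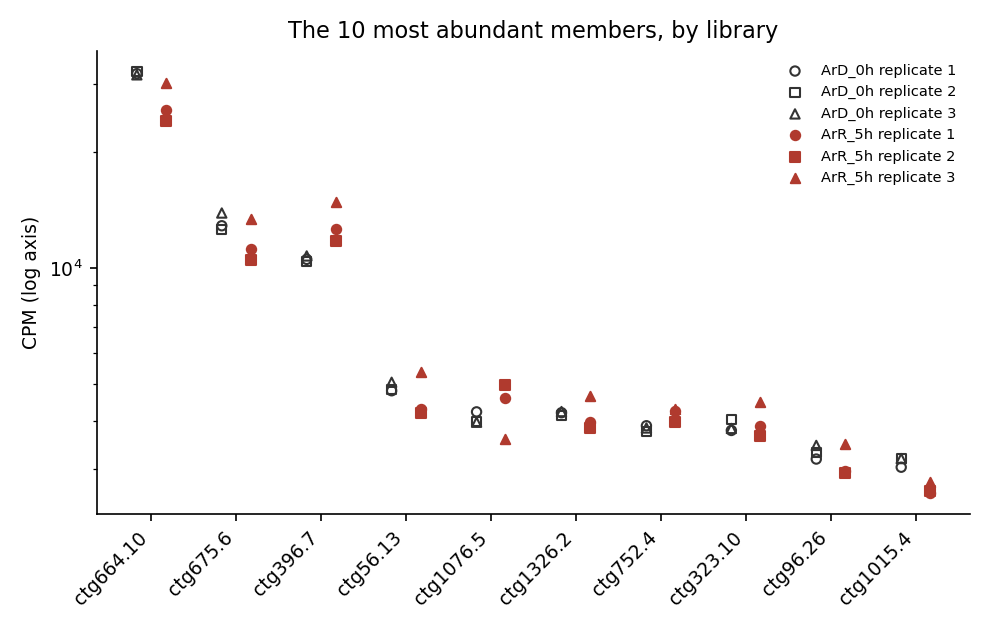
CPM on a log axis of the 10 members with most reads in each library; the prefix evm.TU. is left out of the names. Open symbols are ArD_0h and filled symbols ArR_5h, with a marker for each replicate number, and in 8 of the 10 members ArR_5h replicate 3 is the highest 5 h library and replicate 2 the lowest.

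Reads per model grow with its length, so that levels of different members were compared as FPKM (fragments relative to model length and library size). The members ranged from 114 to 38085 FPKM as means over the 6 libraries, with a median of 894, beside a median of 613 in the other abundant models and 11.8 in all models tested. The model evm.TU.ctg664.10 was also first per length, with 41540.4 ± 478 FPKM at 0 h and 34630.0 ± 6307 FPKM at 5 h (SD, n = 3). The short model evm.TU.ctg1326.2 of 537 bases came next at 7749.6 ± 102 FPKM and 7668 ± 1269 FPKM (SD, n = 3). It was followed by evm.TU.ctg396.7 with 6270.1 ± 127 FPKM and 7757 ± 1425 FPKM, evm.TU.ctg675.6 with 7093 ± 393 FPKM and 6312 ± 1215 FPKM, and evm.TU.ctg52.10 with 4162 ± 156 FPKM and 4275 ± 773 FPKM (SD, n = 3). This order is by the mean over all 6 libraries. At 0 h, the libraries of evm.TU.ctg1326.2, evm.TU.ctg675.6 and evm.TU.ctg396.7 did not overlap and stood in that order, from the highest FPKM to the lowest. At 5 h, the FPKM of all 3 overlapped. The long model evm.TU.ctg1076.5, 5th by reads, was only 100th per length at 693 ± 18.9 FPKM in ArD_0h (SD, n = 3).

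Functional annotation was available for a small part of the members. The GO table of the study covers genes selected for changes in the first 30 min after diapause or from 30 min to 5 h. By its methods, the RNA change had to exceed 2-fold at an adjusted p of at most 0.05 (DESeq2). Chromatin accessibility had to change in the same direction. The copy of the GO table used here was shortened to 567 identifiers, of which 460 carried a term. It held 18 members, 16 of them with a term. They are not a sample of all members, and no enrichment was tested. Among the annotated models, members made up 6 of 88 with transcription or DNA binding, 5 of 61 with transport, 4 of 23 with carbohydrate metabolism, 4 of 91 with metal ion binding and 3 of 59 with ATP binding. They made up 2 of 14 with RNA binding, 2 of 17 with proteolysis, 2 of 117 with membrane, 1 of 7 with ribosome or translation and 1 of 5 with protein folding. None was found among 46 with signal transduction, 34 with oxidation-reduction or energy, 19 with cytoskeleton, 14 with calcium ion binding or 13 with response to stress. Only the chosen terms themselves were matched, without narrower terms below them, so that a count of none does not exclude a related role. The glycolytic model evm.TU.ctg727.6, described below, was not counted under energy. The 20 receptor and signalling identifiers of the study that were looked up included no member and 1 abundant model.

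The first 12 annotated members by CPM are described here, and their ratios are bound by the rule. By the selection of the GO table, the study had called each of them changed in an interval between diapause and 5 h. The ratios compare 0 h with 5 h only and do not show a steady level in between. The model evm.TU.ctg994.12, annotated as a structural constituent of the ribosome that also binds carbohydrate, had 1879, 1802 and 1764 CPM at 0 h and 2229, 2096 and 2282 CPM at 5 h. All 5 h libraries were higher, at a ratio of 1.21. A pair of members belong to delivery of proteins to the endoplasmic reticulum by the signal recognition particle, which docks ribosomes that make secreted or membrane proteins. The GTP-binding model evm.TU.ctg448.11 was at 1416, 1397 and 1450.2 CPM in ArD_0h and 1494, 1447 and 1551 CPM in ArR_5h, a ratio of 1.05 with overlapping groups. The model evm.TU.ctg221.33, annotated as a part of the particle that binds its RNA, was at 1035, 1013 and 1001 CPM and 1008, 1064 and 788 CPM. Its ArR_5h replicate 3 was the only library well below the others, and its ratio was 0.938.

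Members with roles in transcription or DNA binding included evm.TU.ctg1076.5, described above, and evm.TU.ctg647.14, a sequence-specific DNA-binding transcription factor by its terms. The latter had 1292, 1223 and 1259 CPM at 0 h and 1440.4, 1434 and 1491 CPM at 5 h, with no overlap and a ratio of 1.16. The model evm.TU.ctg318.2, annotated with DNA binding, ATP binding and hydrolase activity, was at 2800.1, 2804 and 2821 CPM and 2327, 2345 and 2126 CPM. It was lower in every 5 h library, at a ratio of 0.807 just inside the limit, and had one of the smallest spreads in diapause, with a CV (SD divided by the mean) of 0.388%. The model evm.TU.ctg589.9, annotated with protein splicing and endonuclease activity, had 1414, 1449.9 and 1350.4 CPM and 1518, 1487 and 1427 CPM, and its groups overlapped.

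The remaining annotated members described were mostly enzymes. The model evm.TU.ctg727.6 is annotated as phosphopyruvate hydratase (enolase), an enzyme of glycolysis. It stood at 735, 748 and 744 CPM in diapause and at 883, 841 and 1022 CPM at 5 h, higher in all 5 h libraries at a ratio of 1.23. The model evm.TU.ctg154.1, with terms for carbohydrate metabolism and cell morphogenesis, was at 2211, 2169 and 2234 CPM and 2306, 2209 and 2522 CPM, overlapping at a ratio of 1.06. The phosphotransferase model evm.TU.ctg409.9, which also carries terms of viral membrane fusion, was at 1582, 1543 and 1531 CPM and 1394, 1334 and 1486 CPM, lower in all 5 h libraries at a ratio of 0.905. The extracellular metalloendopeptidase model evm.TU.ctg140.10, an enzyme that cuts proteins, was at 750.2, 739 and 723 CPM and 766, 766 and 661 CPM. Its diapause libraries lay between those of 5 h.

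The members just inside the limits resembled the models just outside. At the level limit, evm.TU.ctg211.2 and evm.TU.ctg71.24 were members with 515 ± 6.54 CPM and 517 ± 9.58 CPM at 0 h (SD, n = 3), whereas evm.TU.ctg49.17 and evm.TU.ctg1087.2 missed it with 511 ± 33.7 CPM and 509 ± 22.0 CPM. At the lower ratio limit, evm.TU.ctg1966.4 (0.801) and evm.TU.ctg174.5 (0.803) were inside and evm.TU.ctg22.5 (0.79971) and evm.TU.ctg150.37 (0.799) outside. At the upper limit, evm.TU.ctg337.9 (1.247) and evm.TU.ctg744.25 (1.24) were inside, whereas a model of 11216 bases (1.27) without an evm.TU identifier and evm.TU.ctg407.14 (1.28) were outside. These differences were smaller than the spread between the ArR_5h libraries, as in evm.TU.ctg744.25 with 1863 ± 108 CPM at 0 h and 2316 ± 300.2 CPM at 5 h (SD, n = 3).

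The ArR_5h libraries that went into the group means are described one by one here. Their ratios to the ArD_0h mean average to the ratio that chose the members, so that these counts and medians describe the chosen values and were not tested. In 125 of the 174 members, every ArR_5h library lay within the ratio limits against the ArD_0h mean, and in 49 at least 1 library did not. Replicate 1 was outside in 5 members, replicate 2 in 19 and replicate 3 in 31. In replicate 2 the members outside were mostly too low (17 under and 2 over the limits), whereas in replicate 3 they went both ways (13 under and 18 over). The median ratio to the diapause mean was 0.949 in replicate 1, 0.912 in replicate 2 and 1.01 in replicate 3. Without replicate 3, 154 of the members had both remaining libraries inside the limits. On totals scaled by TMM factors, all ArR_5h libraries were inside in 95 members, and the medians were 0.924, 0.860 and 1.06.

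**Figure D3:**
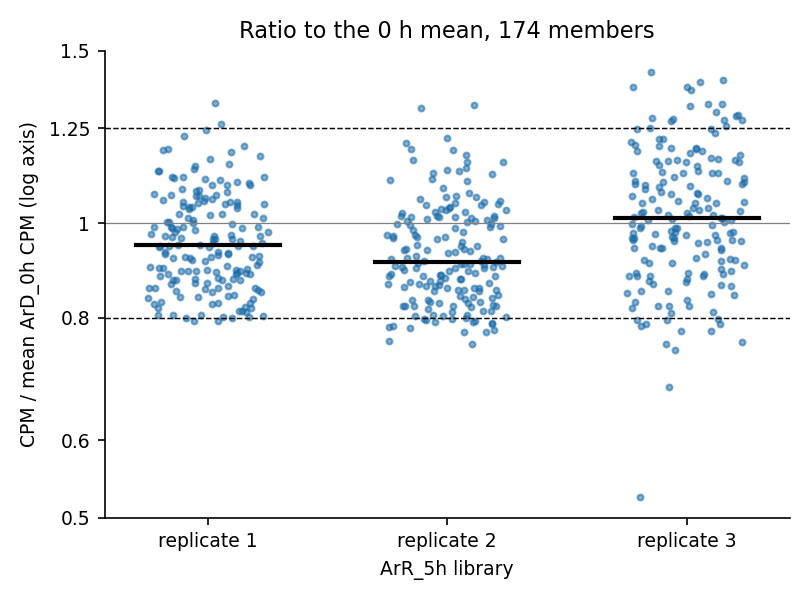
CPM of each of the 174 members in each ArR_5h library, divided by its ArD_0h mean, on a log axis; points are members and black bars their medians, 0.949, 0.912 and 1.01 in replicates 1, 2 and 3. Dashed lines mark the ratio limits, and replicate 3 has the widest scatter.

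The rule was also applied to 4 libraries at a time, and the ratio was read in the 2 left out, which had the same replicate number but are not paired. With number 1 left out, 168 models were chosen and 162 (96.4%) had a held-out ratio within the limits. The held-out ratios of the 168 ran from 0.789 to 1.30. With number 2 left out, 143 of 172 (83.1%) were within them, 28 were under and 1 was over. With number 3 left out, 142 of 186 (76.3%) were within them, with 22 under and 22 over, from 0.418 to 1.52. Of the models chosen on 4 libraries, 165, 166 and 166 were also members with number 1, 2 and 3 left out. The same share was not computed for abundant models that were not chosen. The shares within the limits therefore have nothing to be judged against and are a description only. On TMM-scaled totals the number within the limits was 161 of 165, 119 of 176 and 122 of 174, so that the lowest share was that of number 3 on library totals and that of number 2 on TMM-scaled totals.

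The spread between replicates was not used by the rule. The median CV of the members was 2.60% over the ArD_0h libraries (quartiles 1.58% and 3.79%) and 7.72% over the ArR_5h libraries (quartiles 3.88% and 11.2%). Counting alone would give a median CV of 0.953% and 0.994%, and 155 members at 0 h and 168 at 5 h were above the counting value of their own mean. The CV was larger at 5 h in 146 of 174 members (83.9%), beside 86.8% of the other abundant models and 70.5% of all models tested. The other abundant models had medians of 2.72% and 7.05%. On TMM-scaled totals the median at 5 h was 12.2% for the members and 8.9997% for the other abundant models, and with RLE factors it was 12.4% and 9.13%. The CV at 5 h was then the larger in 165 and 168 members. The median at 5 h was 2.89% without ArR_5h replicate 3, against 10.1% without replicate 1 and 6.85% without replicate 2.

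**Figure D4:**
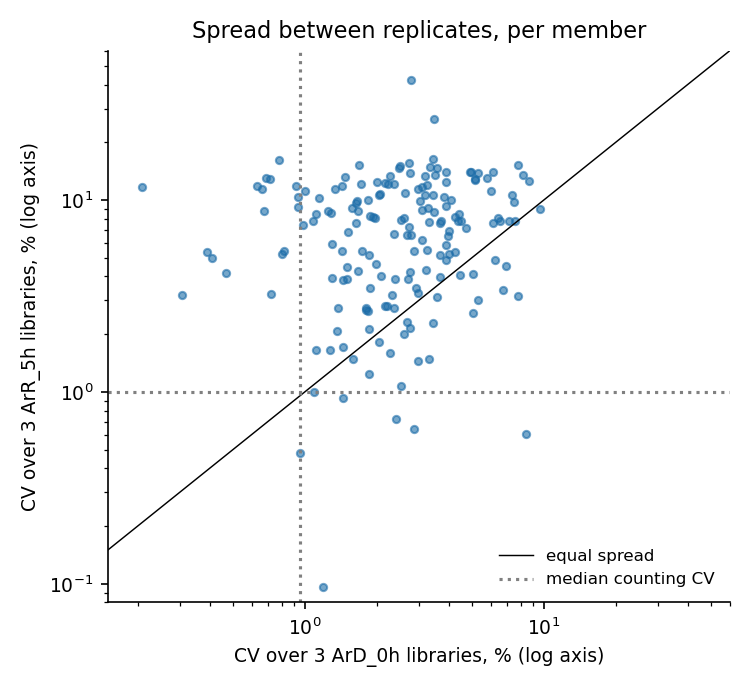
CV over the 3 ArD_0h libraries (x axis) and over the 3 ArR_5h libraries (y axis) of each member, in percent on log axes. The line marks equal spread and the dotted lines the median CV from counting alone (0.953% and 0.994%); 146 of the 174 members lie above the line.

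By CPM on library totals, the steadiest member at 5 h was evm.TU.ctg811.14. It had 1224, 1226 and 1226 CPM in ArR_5h against 1041, 1029 and 1017 CPM in ArD_0h. Its CPM values agreed more closely at 5 h than counting error would lead to on average. All were higher than in diapause, at a ratio of 1.19. The FPKM of this model at 5 h was 553 ± 33.9 (SD, n = 3), so that the close agreement did not hold in FPKM. Within a model, FPKM and CPM differ between libraries only by the library size used. For FPKM that size was 94.8% to 106.6% of the library total. The model evm.TU.ctg41.49 was steady in both groups on library totals, at 581, 587 and 576 CPM and 569.6, 569 and 574 CPM. Its CV there was 0.957% at 0 h and 0.483% at 5 h, whereas its FPKM at 5 h was 199 ± 13.1 (SD, n = 3). The model evm.TU.ctg26.5 had 1817, 1761 and 1733 CPM at 0 h and 1863, 1848 and 1875 CPM at 5 h, at a ratio of 1.05. Among the steadiest were also models at the edge of the rule. The model evm.TU.ctg1966.4 had 840.1, 834 and 830.0 CPM at 5 h against the more scattered 941, 1101 and 1084 CPM at 0 h, and evm.TU.ctg677.3 had 898, 895 and 887 CPM at 5 h against 1084, 1132 and 1073 CPM at 0 h. Both were lower in all 5 h libraries.

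By CPM on library totals, the 5 members with the largest spread at 5 h were all low in replicate 3. The members were not ranked by spread under other scalings, where this set may differ. The model evm.TU.ctg642.14 had 636, 619 and 602 CPM at 0 h and 611, 817 and 325 CPM at 5 h, so that its ratio of 0.944 averaged a library above and a library far below diapause, with a CV of 42.3%. The metal-ion-binding model evm.TU.ctg769.9 had 727, 709 and 678 CPM and 740.1, 827 and 479 CPM, at a CV of 26.6% in ArR_5h. These 2 models were nearly level in diapause, with CVs of 2.79% and 3.46%. The model evm.TU.ctg168.21 had 734, 725 and 736 CPM and 776, 823 and 599 CPM, and evm.TU.ctg221.71 had 576, 561 and 545 CPM and 531, 576 and 422 CPM. A ratio of 1.0012 made evm.TU.ctg168.21 one of the 3 members nearest to 1, although its ArR_5h libraries lay on both sides of all diapause libraries. Of the other 2 nearest to 1, evm.TU.ctg504.22 had 1691, 1644 and 1775 CPM and 1662, 1566 and 1877 CPM. On library totals, the model evm.TU.ctg482.42 with 1005, 1050.3 and 1006 CPM at 0 h and 1011, 1032 and 1014 CPM at 5 h was level in every library.

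The ArR_5h libraries took the same order in most members. Replicate 3 was the highest 5 h library in 131 of 174 members (75.3%) and replicate 2 the lowest in 132 (75.9%), and both held in 124. The reverse, replicate 2 highest and replicate 3 lowest, was found in 20. Over all models tested, on library totals, replicate 3 was highest in 22.7% and replicate 2 lowest in 24.1%. The order was not particular to the members, since replicate 3 was highest in 41 of the 53 abundant models above the upper ratio limit but in 25 of the 99 below the lower one. The median log2 ratio of replicate 3 to replicate 2 was 0.17 over the members, 0.002 over the other abundant models and −0.21 over all models tested. With TMM or RLE factors, replicate 3 was highest in 156 members under either scaling. The median log2 ratio was then 0.32 (TMM) and 0.33 (RLE) over the members, 0.16 under both over the other abundant models, and −0.05 under both over all models tested.

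Among the members, the difference between these libraries followed the length of the models. Among the 72 members under 1000 bases, replicate 3 was above replicate 2 in 69, with a median of 1.16 times. Among the 61 members from 1000 to 2000 bases it was above in 48, with a median of 1.15 times, and among the 41 longer ones in 22, with a median of 1.01 times. On TMM-scaled totals these counts were 72, 59 and 29, as they were with RLE factors. Of the 102 members of at least 1000 bases, replicate 3 was the highest ArR_5h library in 64 (62.7%) on library totals and in 85 (83.3%) under either scaling. Across the members, the log2 ratio of replicate 3 to replicate 2 had a Pearson correlation of −0.47 and a Spearman correlation of −0.42 with log2 length (n = 174 members that share the same 2 libraries, which are not independent). The same correlations were −0.13 and −0.05 across the 152 other abundant models. Across 7924 tested models with at least 50 reads in every library they were −0.35 and −0.36. Of the other abundant models, replicate 3 was above replicate 2 in 21 of 49 under 1000 bases, 32 of 57 up to 2000 bases and 23 of 46 longer ones. With log2 CPM, the Pearson correlation of this ratio was 0.25 across the members, 0.36 across the other abundant models and 0.21 across the 7924. The 5 members with the largest CV at 5 h on library totals were all between 2075 and 5822 bases long.

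**Figure D5:**
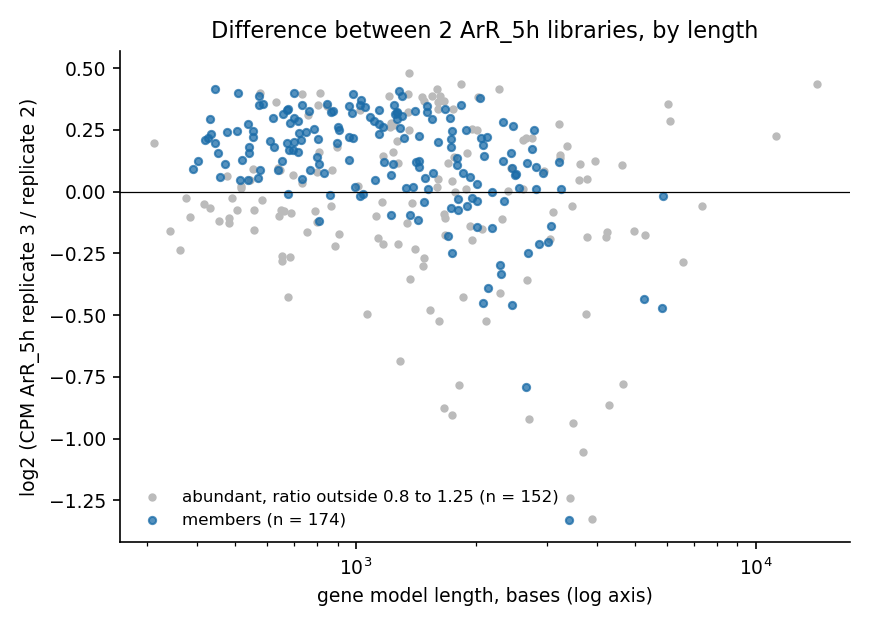
Log2 ratio of the CPM in ArR_5h replicate 3 to that in replicate 2 (y axis) by the length of the gene model (x axis, log scale), for the 174 members (blue) and the 152 other abundant models (grey). On library totals, 69 of the 72 members under 1000 bases lie above 0, and 22 of the 41 from 2000 bases on.

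Length also went with small differences within diapause. Replicate 3 of ArD_0h was above replicate 1 in 62 of the 72 members under 1000 bases, in 35 of the 61 up to 2000 bases and in 15 of the 41 longer ones. The Pearson correlation of this log2 ratio with log2 length was −0.58 across the members (n = 174, with shared libraries). It was −0.18 across the 152 other abundant models and −0.11 across the 7924 tested models with at least 50 reads in every library. The Spearman correlations were −0.59, −0.26 and −0.13 in the same order. The shortest member, evm.TU.ctg1310.4 of 392 bases, stood at 643, 689.9 and 751 CPM in diapause, where replicate 3 was the highest, and at 559, 545 and 580.3 CPM at 5 h. The next shortest, evm.TU.ctg2273.1 of 402 bases, had 1663, 1756 and 1795 CPM and 1392, 1378 and 1504 CPM, in the same order of replicates at 0 h. The longest member was evm.TU.ctg290.13 with 5859 bases, annotated with the nuclear pore and protein secretion. At 685, 672 and 689 CPM and 704, 663 and 655 CPM it did not show the drop in replicate 3 of the similarly long evm.TU.ctg1076.5. The part of length in these differences was not tested.

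The members were mostly models with an evm.TU identifier. Of the 174, 166 had a single such identifier, 1 joined 2 of them and 7 (4.02%) had none, whereas 25 of the 152 other abundant models (16.4%) and 20.2% of all models tested had none. The 7 were between 444 and 2455 bases long, and replicate 3 was the highest ArR_5h library in all 7. The median length of the members was 1228 bases (range 392 to 5859), against 1474 in the other abundant models and 1339 in all models tested. Models under 1000 bases made up 41.4% of the members, 44.4% of the abundant models below the lower ratio limit and 9.43% of those above the upper one.

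By their identifiers, the members lay on 147 contigs, of which 19 carried 2 or more members and 1 was the source of 3. Members with consecutive numbers on a contig formed 3 pairs. The models evm.TU.ctg69.9 and evm.TU.ctg69.10 differed in level, at 2317 ± 15.4 CPM and 601 ± 14.3 CPM at 0 h, and had ratios of 0.997 and 0.811 (SD, n = 3). The models evm.TU.ctg100.15 and evm.TU.ctg100.16 are nearly equal in length (1113 and 1116 bases), with 1397 ± 53.3 CPM and 818 ± 18.5 CPM at 0 h and 1315 ± 136 CPM and 939.7 ± 14.9 CPM at 5 h (SD, n = 3). The groups of the former overlapped, and the latter was higher in all 5 h libraries. The models evm.TU.ctg431.5 and evm.TU.ctg431.6 of 673 and 675 bases had 647 ± 26.0 CPM and 831 ± 72.4 CPM at 0 h and 655 ± 45.2 CPM and 845 ± 106 CPM at 5 h (SD, n = 3). Reads that similar or overlapping neighbours may share were not separated here, so that the levels within these pairs are uncertain.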

How the data were processed

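RNA of 3 ArD_0h and 3 ArR_5h libraries was sequenced as paired-end reads of 150 bp. According to the study's methods and the submitters' processing notes, the authors aligned the reads with HISAT2 2.0.5 to the genome of the related species Artemia franciscana and obtained the deposited counts with featureCounts 1.5.0-p3. The authors also deposited FPKM, made from the counts and the gene lengths. The strand setting and the annotation are not given in the sources used here. Of the other columns of per-sample values, 0 were left unassigned. The study calls the 3 libraries of each group biological replicates but does not say that they came from separate cultures. The p-values therefore measure only the spread between these libraries. A count of 3, taken as the floor, is 0.222 to 0.3002 CPM.

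CPM was computed on the column sums. Model lengths were worked out from count and FPKM. All 14844 models with reads gave a whole number (tolerance 0.01 bases). Differential expression was tested in edgeR 4.0.16 by quasi-likelihood (R 4.3.3; TMM factors, filterByExpr with a minimum count of 10 and a minimum total of 15) over 11959 models, with Benjamini-Hochberg adjustment. The alternatives were other scaling factors, no filter, DESeq2 1.42.0, a replicate block, other limits of the rule and leaving out each replicate. The order of the ArR_5h libraries by length and the spread of the other abundant models were examined under other scalings, and the length bins were set, after seeing the data. The members and lists were chosen with earlier results of these data known. Named members were the 10 with most reads, the 5 highest by FPKM, the 5 lowest and 5 highest by CV at 5 h, the 3 nearest to a ratio of 1, the 2 models next to each limit, the first 12 with GO terms by CPM, neighbours on a contig, and the 2 longest and 2 shortest. Scripts were tested on simulated data. Figures were drawn with matplotlib 3.10.9.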

Additional observations from a re-analysis of the deposited data

How the results depend on the processing

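The rule gave 168 to 183 members when each replicate was left out, 169 with TMM and 170 with RLE scaling, of which 168 were shared under each. Without ArR_5h replicate 3, 163 of the 174 members were chosen again and 20 others joined. With other limits there were 362 members from a log2 CPM of 8, 79 from a log2 CPM of 10 and 96 at ratios between 0.9 and its inverse. Over all models, 2980 to 3194 were differentially expressed without each replicate, against 2984 with all. Members with an adjusted p of at most 0.05 at any fold (edgeR) numbered 18 to 113 without each replicate, against 43 with all: 18 without ArD_0h replicate 2, 19 without ArD_0h replicate 3, 20 without ArR_5h replicate 1 and 113 without ArR_5h replicate 3. In the same order, 6365 of 12305, 6212 of 12138, 6359 of 12136 and 7999 of 12193 models tested passed, against 7233 of 11959 with all. The cause was not tested. The members with every ArR_5h library inside the limits numbered 121 to 154.

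The median CV at 5 h was 12.2% with TMM and 12.4% with RLE scaling, against 7.72% on library totals, and 2.89% to 10.1% without each replicate; that at 0 h was 1.71% to 2.59%. A fit with a replicate block called 3006 models, and 47 members passed at any fold, beside 7226 of the 11959 models tested. The deviations of same-numbered libraries correlated at 0.013, 0.015 and 0.064, so that the numbers are not shown to pair them. Counting error limits the smallest CVs: on library totals, 19 members at 0 h and 6 at 5 h had a CV at or below the value that counting alone gives.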
